A study of Mus musculus with 2 samples.

Results

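Creatine synthesis, uptake and phosphorylation were described here through 6 genes in the stomach of the mouse: Gatm and Gamt, which make creatine, Slc6a8, which carries it into cells, and the creatine kinases Ckb, Ckmt1 and Ckmt2. The genes were chosen by symbol, each found through its gene identifier in the GENCODE annotation, and all 6 were present among the 43346 mouse genes measured. RNA was sequenced from the stomach of C57BL/6J mice, adults of 8 weeks, in 1 group of 2 libraries, here called replicate 2 and replicate 1. Each library came from pooled male and female littermates, with the health state recorded as unknown and the same donor record given for both, so the spread between them may be partly technical. The RNA was polyadenylated, depleted of ribosomal RNA and longer than 200 nucleotides, and was read as stranded pairs of 76 nucleotides with spike-in RNA added. The labels hold no second tissue and no treatment, so the data give levels in bulk stomach tissue, the difference between its replicates, and the RNA forms that carry each gene, with no test between conditions.

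The libraries held 62452468 expected counts in replicate 2 and 52363597 in replicate 1. A floor of 3 counts on a transcript of 1 kilobase corresponds to 0.0437 TPM in replicate 2 and 0.0519 TPM in replicate 1, where TPM counts transcripts relative to all transcripts of a library and corrects for length. Of 21474 protein-coding genes, 10499 reached 1 TPM in both libraries, and the median gene had a mean of 1.15 TPM. Among markers of cell types in the stomach, Atp4a and Atp4b, the subunits of the proton pump of acid-secreting parietal cells, averaged 2043 ± 924 and 1796 ± 673 TPM (SD, n = 2). The summed level of 5 chief cell markers, which include the pepsinogen gene Pgc, was 152100 TPM in replicate 2 and 103777 TPM in replicate 1.

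Creatine is made from arginine, glycine and a methyl group. Gatm, an enzyme of mitochondria, makes guanidinoacetate from arginine and glycine, and Gamt methylates guanidinoacetate to creatine. Creatine kinases then move phosphate between ATP and creatine, with Ckb and the muscle form Ckm in the cytosol and Ckmt1 and Ckmt2 between the mitochondrial membranes, so that phosphocreatine serves as a reserve of energy near pumps and contractile filaments. Most creatine of the body is made in kidney, liver and pancreas and reaches other tissues through blood and the transporter Slc6a8.

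The 6 genes covered a range from the most abundant messages of the stomach to levels below 1 TPM. Ckb and Ckmt1 were among the 150 most abundant protein-coding genes of each library, whereas Ckmt2 and Gatm stood near 1 TPM. The order of the mean levels was Ckb, Ckmt1, Slc6a8, Gamt, Ckmt2 and Gatm, and it was the same in each library. The means of Ckb and Ckmt1 lay 197 TPM apart, less than the 229 TPM of SD between the Ckb values of the 2 libraries. These means thus did not differ beyond the spread between libraries, although the ranges did not overlap. Within a library, Ckb was 1.10 times Ckmt1 in replicate 2 and 1.64 times in replicate 1. Slc6a8 and Gamt were 16.7 TPM apart against an SD of 9.31 TPM, and Ckmt2 and Gatm were 0.745 TPM apart against an SD of 0.622 TPM.

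**Figure D1:**
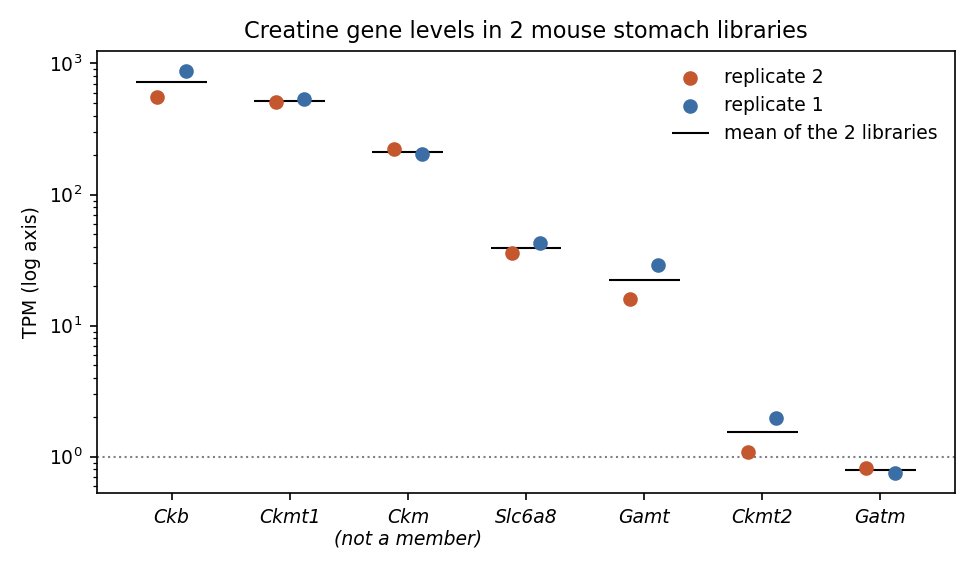
Level of each of the 6 genes and of Ckm in TPM on a log axis, with 1 point per library (replicate 2 left of replicate 1) a line at the mean and a dotted line at 1 TPM. Ckb and Ckmt1 lie highest in both libraries, and Gatm lies below 1 TPM in both.

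Gatm, the first enzyme of the pathway, had the lowest mean level of the 6, near the middle of all protein-coding genes. It had 0.82 TPM in replicate 2 and 0.75 TPM in replicate 1, from 111 counts in replicate 2 and 95 in replicate 1. Its mean of 0.785 ± 0.0495 TPM (SD, n = 2) placed it at rank 11536 of 21474 protein-coding genes. The level was above the limit of 3 counts, which for this gene was 0.0222 TPM in replicate 2 and 0.0238 TPM in replicate 1. Gatm (ENSMUSG00000027199.10) lies on chromosome 2 from 122594467 to 122611303 on the minus strand of mm10.

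Gamt, which completes creatine, was far more abundant than Gatm. It had 15.86 TPM in replicate 2 and 29.02 TPM in replicate 1, with a mean of 22.4 ± 9.31 TPM (SD, n = 2) and rank 2944. The TPM of Gamt was 19.3 times that of Gatm in replicate 2 and 38.7 times in replicate 1. RNA for the second step of synthesis thus exceeded RNA for the first in both libraries. Gamt (ENSMUSG00000020150.9) lies on chromosome 10 from 80258151 to 80261012 on the minus strand.

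Slc6a8, the sodium- and chloride-coupled creatine transporter, had 35.69 TPM in replicate 2 and 42.62 TPM in replicate 1. Its mean was 39.2 ± 4.90 TPM (SD, n = 2), at rank 1845. Its TPM was 43.5 times that of Gatm in replicate 2 and 56.8 times in replicate 1, so RNA for uptake exceeded RNA for the first step of synthesis in both. Against Gamt the ratio was 2.25 in replicate 2 and 1.47 in replicate 1. Slc6a8 (ENSMUSG00000019558.10) lies on chromosome X from 73673150 to 73682502 on the plus strand.

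Ckb, the brain-type cytosolic creatine kinase, was the most abundant of the 6. It had 554.36 TPM in replicate 2 and 877.78 TPM in replicate 1, with a mean of 716 ± 229 TPM (SD, n = 2). That mean was rank 89 of all protein-coding genes, within the top 0.414%. Ckb is widely found in epithelia, smooth muscle and brain. Ckb (ENSMUSG00000001270.8) lies on chromosome 12 from 111669361 to 111672338 on the minus strand.

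Ckmt1, the ubiquitous mitochondrial creatine kinase, was next in abundance and steadier. It had 503.74 TPM in replicate 2 and 533.99 TPM in replicate 1, with a mean of 519 ± 21.4 TPM (SD, n = 2) and rank 134. Ckmt2, the mitochondrial form of heart and skeletal muscle, had 1.09 TPM in replicate 2 and 1.97 TPM in replicate 1, with a mean of 1.53 ± 0.622 TPM (SD, n = 2) and rank 10064. The ratio of Ckmt1 to Ckmt2 was 462 in replicate 2 and 271 in replicate 1. Mitochondrial creatine kinase RNA was therefore almost wholly of the ubiquitous form. Ckmt1 (ENSMUSG00000000308.10) lies on chromosome 2 from 121357714 to 121363737 on the plus strand, and Ckmt2 (ENSMUSG00000021622.3) on chromosome 13 from 91853387 to 91876885 on the minus strand.

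The make-up of the kinase family was read from these genes together with Ckm, the muscle-type cytosolic kinase, which is not 1 of the 6 but takes a visible share. Ckm had 221.42 TPM in replicate 2 and 203.79 TPM in replicate 1. The 4 kinases summed to 1281 TPM in replicate 2 and 1618 TPM in replicate 1. Ckb held 43.3% of that sum in replicate 2 and 54.3% in replicate 1, a mean of 48.8% ± 7.76 (SD, n = 2). Ckmt1 held 39.3% in replicate 2 and 33.0% in replicate 1, and Ckm held 17.3% in replicate 2 and 12.6% in replicate 1. Ckmt2 held 0.0851% in replicate 2 and 0.122% in replicate 1. The order Ckb, Ckmt1, Ckm and Ckmt2 held in both libraries, but the lead of Ckb over Ckmt1 was 1.10-fold in replicate 2 and 1.64-fold in replicate 1. The Ckmt1 level includes models that retain an intron, with 29.0% of its TPM in replicate 2 and 26.9% in replicate 1. Ckb and Ckm have 1 protein-coding model each.

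**Figure D2:**
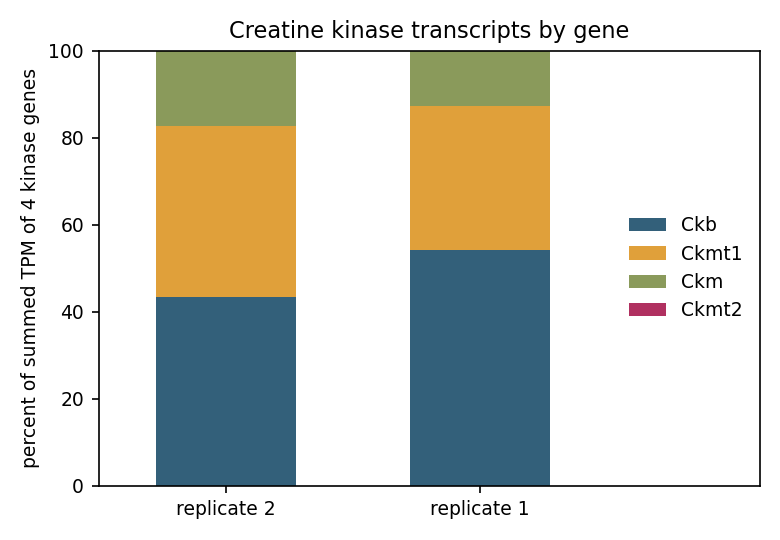
Percent of the summed TPM of the 4 creatine kinase genes held by each, as a stacked bar per library with replicate 2 on the left. Ckb takes 43.3% in replicate 2 and 54.3% in replicate 1, and Ckmt2 is too small a share to be seen.

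The kinase genes resemble each other in sequence, so reads could in principle be shared between them. Ckm was not compared here. Over the coding sequence, Ckmt1 and Ckmt2 were identical at 71.3% of alignment columns, Ckb and Ckmt1 at 60.8%, and Ckb and Ckmt2 at 59.5%. These columns include gaps, which lower the values for Ckb. Its coding sequence has 1143 bases, against 1254 in Ckmt1 and 1257 in Ckmt2. The longest identical stretch is shown because it sets how far a single read could fit both mitochondrial kinases:
Ckmt1 and Ckmt2: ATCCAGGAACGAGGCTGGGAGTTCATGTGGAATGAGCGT
This run of 39 bases is shorter than the 76 nucleotides of 1 read, and the longest run that Ckb shared with either mitochondrial kinase was 15 bases. The deposited posterior SD of each count was small, at 0.00323% or less of the count for all 6 genes in both libraries.

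The promoters of Ckb, Ckmt1 and Gatm are shown because these genes mark the top and the bottom of the range, and because Ckmt1 has more than 1 annotated start. They come from RefSeq on GRCm38.p6 and run from 250 bases before to 50 bases after the start, 5′ to 3′ on the gene's strand. Capitals mark every match on either strand to the 3 motifs searched, which were the TATA box (TATAAA), the CAAT box (CCAAT) and the GC box (GGGCGG); none of the matches overlap.
Ckb, chr12:111672289-111672588, minus strand: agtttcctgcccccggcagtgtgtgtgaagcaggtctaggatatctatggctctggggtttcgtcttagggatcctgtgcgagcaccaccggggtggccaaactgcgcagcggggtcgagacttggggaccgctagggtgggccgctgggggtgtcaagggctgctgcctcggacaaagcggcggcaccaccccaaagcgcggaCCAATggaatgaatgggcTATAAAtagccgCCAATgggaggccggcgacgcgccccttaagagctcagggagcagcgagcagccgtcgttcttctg
Ckmt1 upstream start, chr2:121357526-121357825, plus strand: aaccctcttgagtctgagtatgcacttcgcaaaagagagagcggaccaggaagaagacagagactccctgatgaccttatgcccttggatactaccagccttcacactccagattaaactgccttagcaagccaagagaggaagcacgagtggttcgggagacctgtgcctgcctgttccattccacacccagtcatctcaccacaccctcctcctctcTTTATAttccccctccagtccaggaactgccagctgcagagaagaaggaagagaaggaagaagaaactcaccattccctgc
Ckmt1 downstream start, chr2:121358360-121358659, plus strand: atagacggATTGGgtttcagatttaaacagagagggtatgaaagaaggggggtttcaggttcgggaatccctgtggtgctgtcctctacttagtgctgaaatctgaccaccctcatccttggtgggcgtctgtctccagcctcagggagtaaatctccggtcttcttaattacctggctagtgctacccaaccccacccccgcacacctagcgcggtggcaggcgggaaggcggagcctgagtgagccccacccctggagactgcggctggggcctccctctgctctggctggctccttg
Gatm, chr2:122611228-122611527, minus strand: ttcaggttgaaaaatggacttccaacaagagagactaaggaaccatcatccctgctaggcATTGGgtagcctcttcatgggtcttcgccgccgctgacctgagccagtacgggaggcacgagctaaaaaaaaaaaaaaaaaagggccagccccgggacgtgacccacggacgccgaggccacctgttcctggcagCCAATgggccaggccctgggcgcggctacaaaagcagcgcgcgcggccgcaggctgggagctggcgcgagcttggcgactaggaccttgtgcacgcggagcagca
Ckb held TATAAA at -28 and CCAAT at -46 and -16, counted from the start site to the first base of the match. The upstream Ckmt1 promoter held TATAAA on the opposite strand at -31, and the downstream promoter held CCAAT on the opposite strand at -242. Gatm held CCAAT at -55 and, on the opposite strand, at -190. Of 32851 promoters of this length, 13.6% held the TATA box, 37.4% held the CAAT box and 35.7% held the GC box. The matches describe letters in these windows and were not related to the levels.

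Between the replicates, the scaled counts of Ckb, Ckmt1, Ckmt2, Gamt and Slc6a8 were lower in replicate 2 by more than counting error. The interval of Gatm spanned 0. The share of all genes that were lower by more than counting error was not computed, so nothing particular to these genes is read from this. Ratios are given as log2 of replicate 2 over replicate 1, from expected counts scaled by the trimmed mean of M-values (TMM), with a 95% interval that covers counting error only. Gamt stood at -0.86 (interval -0.99 to -0.74), from 859 counts in replicate 2 and 1300 in replicate 1. Ckmt2 stood at -0.84 (interval -1.24 to -0.48), from 97 counts in replicate 2 and 146 in replicate 1. These values correspond to folds of 0.549 for Gamt and 0.557 for Ckmt2.

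Ckb stood at -0.67 (interval -0.69 to -0.65), from 48955 counts in replicate 2 and 64587 in replicate 1. Slc6a8 stood at -0.53 (interval -0.58 to -0.48), from 6309 counts in replicate 2 and 7544 in replicate 1. Ckmt1 stood at -0.19 (interval -0.21 to -0.17), from 36134 counts in replicate 2 and 34259 in replicate 1, and at -0.084 on the log2(TPM + 1) scale. The intervals of Ckb and Ckmt1 did not overlap, so these genes differed in their replicate ratio by more than counting error. The other kinases did not follow a division into cytosolic and mitochondrial forms, since Ckm stood at 0.11 (interval 0.08 to 0.15) and Ckmt2 at -0.84. Gatm stood at -0.04 (interval -0.45 to 0.37). In bulk tissue, fewer cells of a type and less RNA per cell cannot be told apart.

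None of the 4 members with a mean of at least 5 TPM, which are Ckb, Ckmt1, Slc6a8 and Gamt, differed by 2-fold or more, beside 6.64% of the 6837 protein-coding genes at that level. Lower values in replicate 2 were common among abundant genes, with 62.8% of those genes below 0 and a median ratio of -0.13. Ckmt1, at -0.19, was just below that median, while Ckb, Slc6a8 and Gamt were further below it. Among the 11046 genes with a mean of at least 1 TPM, 53% were below 0, beside all 5 members at that level. Among the 3210 genes with a mean of at least 20 TPM, 73.5% were below 0 and the median ratio was -0.22, which lies below Ckmt1 and above Ckb, Slc6a8 and Gamt.

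**Figure D3:**
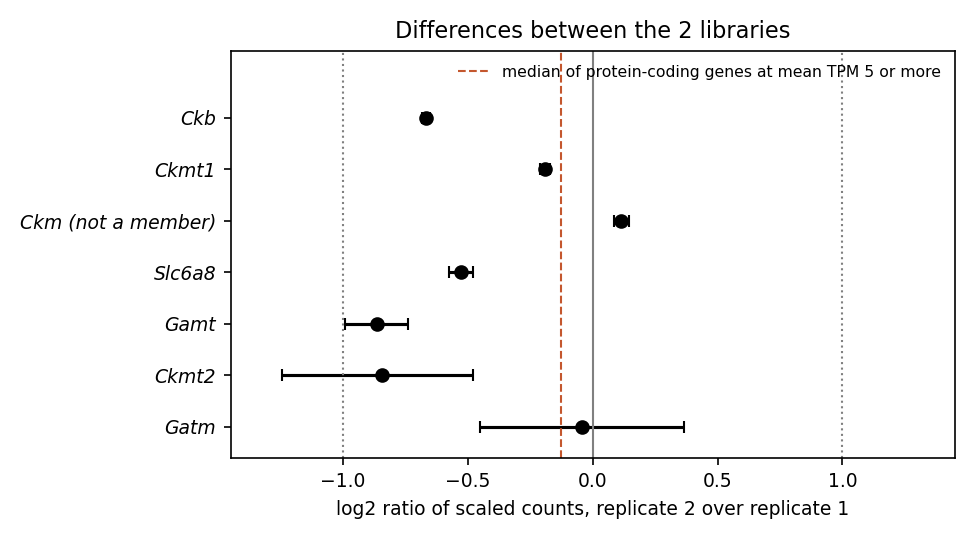
Log2 ratio of replicate 2 over replicate 1 for each of the 6 genes and Ckm, with the 95% interval for counting error, beside the median of protein-coding genes with a mean of at least 5 TPM (dashed); dotted lines mark 2-fold differences. Gamt, Ckmt2, Ckb, Slc6a8 and, by less, Ckmt1 lie below the median, Ckm lies above 0, and the interval of Gatm spans 0.

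Cell type markers differed between the same libraries. The 7 parietal cell markers summed to 2928 TPM in replicate 2 and 5234 TPM in replicate 1, and all 6 with a mean of at least 1 TPM were lower in replicate 2, with a median ratio of -0.70. Among these, Slc26a9 stood at -0.04 with an interval that spanned 0. The 7 smooth muscle markers summed to 4362 TPM in replicate 2 and 7019 TPM in replicate 1, with 6 of 7 lower and a median of -0.71, while Myh11, the myosin heavy chain of smooth muscle, was higher at 0.86. The 5 chief cell markers had a median of 0.55, and 0 of 5 were lower. Pit cell markers had a median of 0.44 with 1 of 5 lower, and squamous forestomach markers -0.08 with 3 of 6 lower. Markers of neurons and glia had a median of 0.30, with 2 of the 5 at a mean of at least 1 TPM lower. What these cell types add to the ratios of Ckb, Gamt and the other members was not tested.

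Markers of organs in which these genes are best known were also read. The 8 striated muscle markers summed to 643 TPM in replicate 2 and 671 TPM in replicate 1, mainly from Acta1, skeletal muscle actin. The 5 heart markers summed to 326 TPM in replicate 2 and 776 TPM in replicate 1, mainly from the troponin gene Tnni3, with the ventricular light chain Myl2 at 0 in both. Myh6, the heart myosin heavy chain, averaged 0.035 ± 0.0071 TPM (SD, n = 2). The 5 kidney markers summed to 0.23 TPM in replicate 2 and 1.23 TPM in replicate 1, and none reached 1 TPM in both. The 8 pancreas acinar markers summed to 201 TPM in replicate 2 and 70.9 TPM in replicate 1, mainly from the trypsin gene Try4 with 185 TPM in replicate 2 and 57.8 TPM in replicate 1, and 3 of 8 reached 1 TPM in both. The 5 liver markers summed to 540 TPM in replicate 2 and 761 TPM in replicate 1, mainly from the apolipoprotein gene Apoa1. Whether any of these tissues contributed to Ckm, Ckmt2 or Gatm was not tested.

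At the level of transcripts, Ckb and Ckmt2 had 1 annotated model each, whereas Ckmt1 had 10 and Slc6a8 had 13. Ckmt1-202, a protein-coding model of 1518 bases, held 54.3% of the gene's TPM in replicate 2 and 59.3% in replicate 1, a mean of 56.8% ± 3.56 (SD, n = 2). Ckmt1-208, a retained-intron model of 959 bases, held 22.6% in replicate 2 and 26.9% in replicate 1. Smaller shares fell to Ckmt1-204, with 6.26% in replicate 2 and 4.06% in replicate 1, and to Ckmt1-201, with 4.46% in replicate 2 and 5.38% in replicate 1. Ckmt1-210, a retained-intron model of 422 bases, held 6.42% in replicate 2 and was listed at 0 in replicate 1.

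Grouped by start, the 4 Ckmt1 models that begin within 300 bases of the upstream RefSeq start held 64.0% of the TPM in replicate 2 and 65.2% in replicate 1. The 5 models that begin within 300 bases of the downstream start held 29.6% in replicate 2 and 34.8% in replicate 1. Most of this fell to the retained-intron model Ckmt1-208, with 22.6% in replicate 2 and 26.9% in replicate 1. The remaining model, with neither start, was Ckmt1-210. By TPM, the models near the upstream start held the larger share in both libraries. The means differed by well beyond the SDs of 0.867 and 3.67 percentage points. Reads that span an intron could not decide these shares, because they varied along the gene. The upstream intron of 936 bases had 5645 reads, against 18753 on the 577-base intron, which models of both starts share. Later introns had 186 to 7077. The 733-base intron of Ckmt1-204, an upstream model, had no listed read, nor had the 484-base intron of a downstream model.

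Gamt-201, of 979 bases, held 77.1% of Gamt TPM in replicate 2 and 80.9% in replicate 1, and Gamt-202, of 988 bases, held 21.5% in replicate 2 and 18.1% in replicate 1. Gatm-201 held 85.4% in replicate 2 and 100% in replicate 1, where the remainder in replicate 2 was a retained-intron model resting on 5 counts. The shares of both synthesis genes were thus dominated by 1 protein-coding model in each library.

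The share of the leading model varied most in Slc6a8. Slc6a8-201, the full-length model of 3964 bases, held 39.8% of the TPM in replicate 2 and 69.6% in replicate 1, a mean of 54.7% ± 21.1 (SD, n = 2). Slc6a8-202, a model marked for nonsense-mediated decay, held 22.2% in replicate 2 from 1378 counts and was listed at 0 in replicate 1. Slc6a8-204 held 14.2% in replicate 2 and 11.9% in replicate 1. Protein-coding models together held 54.0% in replicate 2 and 81.6% in replicate 1. Slc6a8-208, of 493 bases, held 8.52% in replicate 2 and was at 0 in replicate 1, and Slc6a8-212 and Slc6a8-205 each held between 6.00% and 7.49% in both. On the log2(TPM + 1) scale, which uses the effective length these shares give the gene, the replicate ratio of Slc6a8 was -0.25, against -0.53 from counts.

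**Figure D4:**
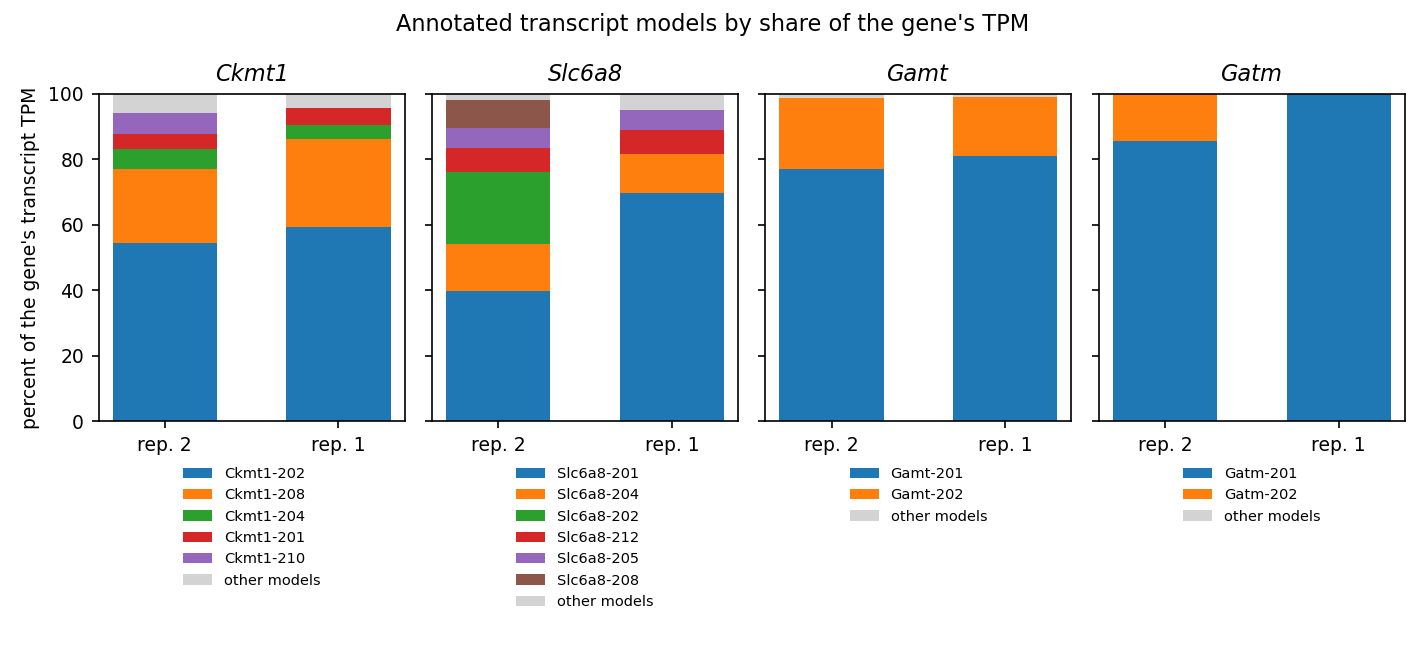
Percent of each gene's TPM held by its annotated transcripts in replicate 2 and replicate 1, for the members with more than 1 model. The leading Slc6a8 model holds 39.8% in replicate 2 and 69.6% in replicate 1, whereas the leading models of Ckmt1 and Gamt differ by less.

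Reads that span an intron, deposited for both libraries together on mm9, gave a second reading of the RNA forms. Every intron of the Ckb model carried reads, with a median of 5299 and a range of 30 to 23285. All 9 introns of Ckmt1-202 carried reads, from 186 to 18753 with a median of 1096, and all 9 of Ckmt2 carried reads, from 1 to 48 with a median of 21. Gatm had reads on 5 of 8 introns, with at most 16 and none on introns 2, 3 and 8. Some spliced Gatm RNA was thus present at a low level, without reads on every intron of the model. The order of the median reads was that of the levels for Ckb, Ckmt1, Slc6a8 (251), Gamt (55), Ckmt2 and Gatm (9.5).

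Coverage within the genes was uneven. In Ckb, introns 1 to 3 carried 23285, 9425 and 11081 reads, while introns 5 to 7 carried 2324, 30 and 2667. The 30 reads fell on intron 6, of 147 bases. The exons used for this match sum to 1472 bases, against 1478 in the deposited Ckb model, so its intron ends may not be identical. All 7 introns used did match listed junctions by length and spacing. The 29 other junctions within Ckb held 203 reads together. In Ckmt1, the second intron carried 18753 reads and the seventh 186. Contigs of the deposited coverage reached a signal of 302 over Ckb, 275 over Ckmt1, 45.9 over Slc6a8, 39.8 over Gamt, 3.89 over Gatm and 2.36 over Ckmt2. They covered 100% of the introns of Ckb and 60.8% of those of Ckmt1, but 2.51% of those of Gatm and 0.0545% of those of Ckmt2. Of the exon bases they covered 46.2% in Gatm and 83.1% in Ckmt2, against 100% in Ckb, Ckmt1 and Gamt.

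**Figure D5:**
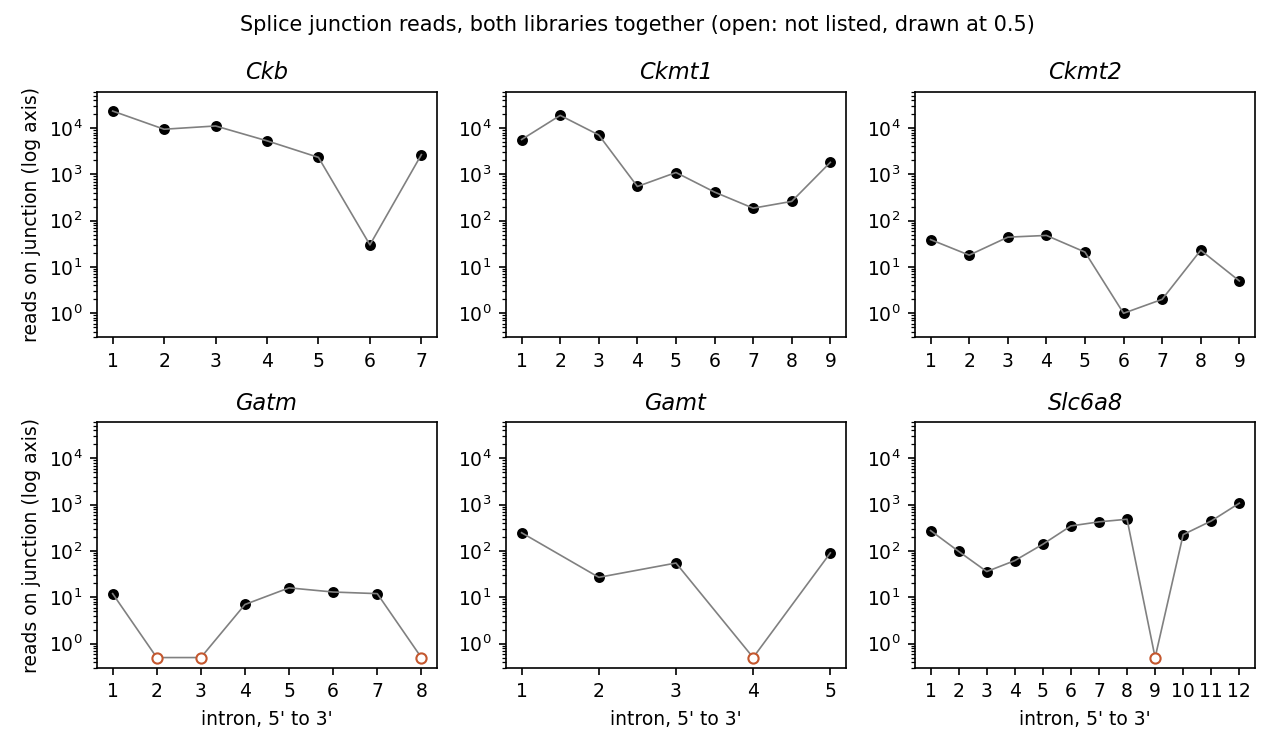
Reads on each intron of the leading transcript of the 6 genes, in order from the start, on a log axis with lines joining neighbouring introns and introns without listed reads drawn as open points at 0.5. Ckb runs from 23285 reads on intron 1 to 30 on intron 6, and Slc6a8 and Gamt each have 1 intron without reads where a neighbouring form has them.

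For Slc6a8 and Gamt the junction reads went to other forms than the leading models at 1 intron each. The Slc6a8-201 model holds an intron of 60 bases (chromosome X, 73680072 to 73680131) with no listed read, whereas the 75-base intron that shares its acceptor, used by 5 other models, had 381 reads, and an 84-base form had 10. The models with the 75-base intron held 43.6% of the TPM in replicate 2 and 19.3% in replicate 1. The sequences joined by each form, from the GENCODE M21 transcripts on GRCm38, are shown because they tell the introns apart, although the models also differ elsewhere, and capitals mark the extra 15 bases of the 60-base form.
Slc6a8 with the 60-base intron: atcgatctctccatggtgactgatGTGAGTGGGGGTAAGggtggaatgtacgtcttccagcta
Slc6a8 with the 75-base intron: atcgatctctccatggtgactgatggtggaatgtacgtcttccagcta
Slc6a8-202, the decay model seen in replicate 2, has its own intron of 412 bases, which also had no listed read, while the 421-base form with the same acceptor had 36. The table lists only junctions with at least 1 read. Its reads are given in parts named R1 and R2, which could not be tied to replicate 1 or replicate 2, so only their sum was used. Introns as short as these are listed elsewhere in the table, with 7040 junctions of 60 or fewer bases and a shortest of 31.

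In Gamt, the leading model holds an intron of 78 bases (chromosome 10, 80259099 to 80259176) with no listed read, and the 126-base intron with the same donor, used by 3 other models, had 16 reads. The models with the 126-base intron held 22.9% of the TPM in replicate 2 and 19.1% in replicate 1. Capitals mark the extra 48 bases of the 78-base form.
Gamt with the 78-base intron: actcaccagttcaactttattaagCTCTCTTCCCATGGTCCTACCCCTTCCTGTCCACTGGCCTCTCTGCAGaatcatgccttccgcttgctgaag
Gamt with the 126-base intron: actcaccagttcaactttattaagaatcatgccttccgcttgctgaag
The leading models of Slc6a8 and Gamt by TPM were therefore those whose distinguishing intron had no junction read. The extra bases are a multiple of 3 in both genes, so the forms keep the same reading frame on each side.

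Around the 6 genes, the pathways that supply and use creatine were read from lists of genes. In phosphotransfer and ATP exchange, 14 of 15 genes reached 1 TPM in both libraries, with a median of 37.1 TPM. Of the 14 with a mean of at least 1 TPM, 11 were lower in replicate 2, and the median ratio was -0.24, beside -0.03 over all genes at that level and -0.22 over genes of at least 20 TPM. Its most abundant genes were Slc25a3, the mitochondrial phosphate carrier, at 610 ± 131 TPM (SD, n = 2), and Slc25a5, an ADP/ATP carrier, at 469 ± 52.1 TPM. Vdac2, a pore of the outer mitochondrial membrane, stood at 181 ± 14.0 TPM, and the adenylate kinase gene Ak5 at 0.09 ± 0.0566 TPM. The mean of Slc25a3 thus lay between those of Ckb and Ckmt1, and that of Slc25a5 just below Ckmt1.

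Genes of arginine and ornithine reached 1 TPM in both libraries in 8 of 15 cases, with a median of 2.01 TPM, 5 of 10 lower in replicate 2 and a median ratio of 0.01. Azin1, the antizyme inhibitor, stood at 171 ± 47.2 TPM, Oat, ornithine aminotransferase, at 48.2 ± 12 TPM, Odc1, ornithine decarboxylase, at 15.8 ± 3.61 TPM, and Asl, argininosuccinate lyase, at 9.46 ± 0.502 TPM (SD, n = 2 each). The arginase genes Arg1 and Arg2 were at 0.795 ± 0.148 and 0.225 ± 0.219 TPM. Of 14 genes of methyl supply and use, 9 reached 1 TPM in both libraries, and 3 of 9 were lower in replicate 2. Among them, Ahcy, which clears S-adenosylhomocysteine, stood at 14.7 ± 1.83 TPM and Mat2b, a subunit of methionine adenosyltransferase, at 10.8 ± 1.17 TPM (SD, n = 2 each). The liver genes Mat1a and Bhmt were at 0.1 TPM and listed at 0.

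Of 9 genes of glycine supply and breakdown, 8 reached 1 TPM in both libraries, with 3 of 8 lower in replicate 2 and a median ratio of 0.02. Alas1, the first enzyme of heme synthesis, had 66.7 ± 5.96 TPM, the glycine transporter Slc6a9 28.1 ± 5.73 TPM, Shmt2 23.9 ± 1.02 TPM and Gcsh 6.75 ± 1.30 TPM (SD, n = 2 each). Among 16 other Slc6 transporters, 5 reached 1 TPM in both, 2 of 5 were lower in replicate 2 and the median ratio was 0.05. The highest were Slc6a6, the taurine transporter, at 11.6 ± 0.0141 TPM, Slc6a20a at 9.86 ± 2.33 TPM, Slc6a19 at 5.31 ± 0.141 TPM and Slc6a17 at 4.41 ± 0.0141 TPM. Slc6a8, at 39.2 TPM, exceeded each of these 16 family members, and 0 genes of the 5 lists with a mean of at least 1 TPM differed by 2-fold or more between the replicates, beside 7.42% of all genes at that level.

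Genes with the most similar pair of levels were found by Euclidean distance in log2(TPM + 1) over both libraries among 21474 protein-coding genes. For Ckb they were Ndufs7 (distance 0.00837) and Uqcr10 (0.119), which encode subunits of mitochondrial respiratory complexes. Those nearest to Ckmt1 were Mucl3 (0.0873) and Ubb (0.131), and those nearest to Slc6a8 were Kxd1 (0.0166) and Inppl1 (0.0237). Gamt was nearest to Hmox1 (0.0270) and Trim3 (0.0313), Ckmt2 to Tdp2 (0.0168) and Ccdc32 (0.0339), and Gatm to Mgme1 (0.00795) and Parp11 (0.0182). With only 2 libraries such likeness describes level and says little of pattern.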

How the data were processed

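The 2 libraries of 1 group were analysed, so levels are means ± SD and no p-value was computed. The assembly is mm10 per the labels. No aligner or quantifier is named there. The authors deposited expected counts per gene and transcript, with GENCODE M4 gene models, and TPM, in which spike-ins count towards the total. FPKM values and the percent of a gene held by each transcript were also deposited by the authors and were not used for results. A posterior SD of each count, a score of how far shared reads leave the count uncertain, stands in the deposited tables, per the file headers. Counts of junction reads and the signal of coverage contigs were deposited on mm9 for both libraries together. Their undefined significance field was read as a reproducibility value.

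Of 69691 features, 43346 were mouse genes and 96 were spike-ins. Spike-ins took 1.12% of expected counts in replicate 2 and 1.14% in replicate 1, phiX took 0.185% in replicate 2 and 0.252% in replicate 1, and these stayed out of library sizes. Symbols from GENCODE M21 matched 98.0% of mouse genes. Expected counts were rounded to whole numbers, scaled by TMM in edgeR 4.0.16 (R 4.3.3), and compared with a prior count of 2 and an exact Clopper-Pearson interval. Intervals and floors cover counting error only, since molecules were not tagged. DESeq2 1.42.0 size factors were an alternative. Only the TMM ratios and their intervals were tested on simulated counts. Tables were handled in Python 3.11.15.

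Mouse introns were tied to the mm9 junctions by their lengths and spacing, and no coordinates were converted. The M4 models were taken to have the M21 exon structure where names and lengths matched. Named genes were the 6 members, Ckm for the kinase composition, up to 4 of highest mean TPM and up to 2 below 1 TPM per pathway list, the 2 genes nearest in level to each member, and transcripts with at least 5% of their gene's TPM in either library. The members and lists were chosen with earlier results of these data known. Some genes that this rule names are not reported here.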

Additional observations from a re-analysis of the deposited data

Results flagged for a closer look

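Junction reads also fell on introns that the GENCODE M21 models do not hold, a reading no comparison above uses. In Gamt, 62 reads joined exon 1 to exon 4 across 1476 bases, which leaves out exons 2 and 3, 210 bases that are a multiple of 3. The joined sequence, from GENCODE M21 on GRCm38 with no base in capitals, is shown because it marks the skipped form:
Gamt exon 1 to exon 4: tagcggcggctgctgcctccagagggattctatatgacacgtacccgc
These 62 reads exceed the 27 reads on intron 2 and 55 on intron 3 of the leading model, and lie below the 248 on intron 1. In Ckmt1, 19 reads fell on a junction of 778 bases that leaves out exon 4, of 96 bases. Both junctions were flagged because they joined annotated intron ends, held more than 3 reads and had a reproducibility value of 0.1 or lower, with lower read as better. That value was 0.019 for Gamt and 0.069 for Ckmt1. A Ckmt1 junction of 975 bases, without both ends annotated, had 24 reads at 0.043. Ckmt1 junctions of 885 and 1719 bases, with both ends annotated, had 13 reads each at 0.204. The library of origin of the reads is not known.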

How the results depend on the processing

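Of 114 alternative values, 94 stayed within the replicate spread, the interval or, for gene counts, 1.5 times of the main value, and 20 moved. For levels and shares, values from 1 library alone lie within that spread by construction. They are counted among the 94 but test nothing. None of the ratios whose interval leaves out 0 changed sign. Without Clps and Pgc, the TPM rescaled to the remaining genes gave 1107 for Ckb, 819 for Ckmt1, 2.35 for Ckmt2, 1.25 for Gatm, 34.5 for Gamt and 61.4 for Slc6a8, which puts Gatm above 1 TPM. The posterior mean TPM of Gatm was 0.87. The Ckb ratio was -0.71 by DESeq2 size factors, -0.63 by spike-ins and -0.69 by TMM from all genes. The Ckmt1 ratio was -0.24 by DESeq2 size factors, -0.15 by spike-ins and -0.084 on log2(TPM + 1). The Slc6a8 ratio was -0.25 on log2(TPM + 1). Gatm, whose interval spans 0, changed sign on that scale, to 0.057 against -0.04. Genes at 2-fold or more numbered 820 with a mean of at least 1 TPM and 279 with at least 20 TPM, against 454. By expected counts, Ckmt1-202 held 69.6% of its gene. Spike-in scaling gave the genes at 1 TPM a median of 0.01, against -0.03. For these moves the cause was not tested. No paired analysis was possible because the labels give 1 group. Depth limits Gatm and Ckmt2, which rest on 95 to 146 reads a library.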
